A study of Mus musculus with 20 samples.

Results

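Prefrontal-projecting pyramidal cells of the mouse subiculum, labelled PFC, were compared with the subiculum pyramidal cells labelled NA, RSC and VHN by the target of their axons. The members were the 3 bulk RNA-seq libraries whose label gives PFC as the projection target, out of 20 samples in the series. The other bulk samples were 3 libraries each of NA, RSC and VHN cells, and the remaining samples were single cells of the same region. PFC, NA and RSC are customary short forms of prefrontal cortex, nucleus accumbens and retrosplenial cortex, and the name VHN is kept, since the labels spell out none of them. In every group, fluorescent neurons were picked by hand from microdissected slices, and the replicates of a population are biological replicates per the series' design text. How the cells were made fluorescent, and the strain, age and sex of the mice, are not given in the sources used here, so the groups are known only by projection target.

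The subiculum carries most of the output of the hippocampal formation to cortical and subcortical targets. Its pyramidal cells are glutamatergic neurons, and cells that send axons to different targets tend to sit at different positions within it. Genes that part such populations typically belong to classes that set a neuron's identity and wiring: transcription factors, adhesion molecules, ion channels, receptors and the proteins of the synaptic vesicle and the cytoskeleton.

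The PFC libraries held 10873160, 14019666 and 10777274 gene fragments, against 11325173 to 20904127 in the 9 others. Levels are given as CPM, fragment counts brought to a common library total with trimmed-mean scaling, and every adjusted p is from edgeR's quasi-likelihood test over 13916 genes. A log2 fold change is the fitted log2 level in PFC minus the mean of the log2 levels of the 3 other populations, unless another contrast is named. The 3 are weighted equally, and a population with very low levels weighs strongly in that mean. A fold given beside it is a ratio of mean CPM, so the 2 measures can differ. Markers of excitatory pyramidal cells summed to 4146 to 4963 CPM in PFC, and the inhibitory marker Gad1 was at 0 in all 3 PFC libraries. Some other libraries stood apart. The interneuron marker Gad2 was at 43.3 CPM in RSC replicate 2, 177 CPM in RSC replicate 3 and 91.8 CPM in VHN replicate 3, and at 7.39 CPM or less in the remaining 9 libraries. The second principal component (16.4% of the variance) separated NA replicate 2, and the third (11.6%) separated PFC replicate 3. Counts are given with and without these libraries.

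The first question was which genes part PFC from each of the other 3 populations. Against the mean of the others, 609 genes (4.38% of those tested) were higher in PFC and 491 (3.53%) lower, 7.9% together. Taken one population at a time, 679 were higher and 679 lower against RSC (4.88% each, 9.76% together), and 336 (2.41%) higher and 372 (2.67%) lower against VHN (5.09% together). Against NA only 5 were higher (0.0359%) and 56 lower (0.402%), 0.438% together, while 727 and 1133 genes had an unadjusted p under 0.05. The 3 comparisons share the PFC libraries. A gene was called set apart in PFC when it passed all 3 of these tests with the same sign, which held for 2 higher genes (0.0144%) and 36 lower genes (0.259%). By the same rule NA had 5 higher and 2 lower genes, and edgeR called none for RSC or VHN. At unadjusted p under 0.05 in all 3 tests, 54 genes were higher and 244 lower in RSC and 11 higher and 54 lower in VHN, against 185 higher and 436 lower in PFC; DESeq2 set apart 0 and 51 genes in RSC and 2 and 8 in VHN.

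The lower genes included Fam78a, Elfn1, Osbpl3, Pcsk5, Fgf11, Slc17a6, Rap1gap2, Ntm, Adgra1, Ier5, Kcnf1, Etv1, Cntnap5a, Cspg5, Cyp51, Fosl2, Mphosph8, Rrp1, Etv5, Rbm6, Dkk3, Ppig, Hspa4, Map1a, Pnkd, Parm1, Vsnl1, Ndrg4, Kif21a, Sv2b, Slc35f1, Ank3, Ank2, Kif1a and Map1b. The 2 higher genes were Cpne6 and Syn2. All 38 had no overlap between the 3 PFC libraries and the 9 others, against 353 genes (2.54%) above and 388 (2.79%) below all 9 among those tested. On the FPKM scale of the authors, from the same libraries, 33 of the 36 lower genes and both higher genes had no overlap. The log2 fold changes of the lower genes ran from −6.78 to −0.55 with a median of −1.40, beside a median of 0.04 over all genes tested. The 38 were picked by tests on these same libraries, so their separation and the size of their changes are no independent evidence. In bulk samples, fewer cells of a type and less RNA per cell cannot be told apart.

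How many genes were set apart depended on the fit. Without RSC replicates 2 and 3 and VHN replicate 3, 5 lower genes and no higher gene passed with edgeR: Adgra1, Dkk3, Etv1, Map1a and Ntm. There 125 higher and 238 lower genes had an unadjusted p under 0.05 in all 3 tests. That fit holds 1 RSC library, which is assumed to vary like the other groups. Without NA replicate 2 and PFC replicate 3, 3 genes were higher and 29 lower, and 11 of the lower ones were among the 36. DESeq2 set apart 63 higher and 170 lower genes, including all 38, and leaving low counts unfiltered gave 47 and 148. When each pair was fitted on its own 6 libraries, no gene passed edgeR's adjusted test against NA, so none was set apart, while 409 higher and 672 lower genes had an unadjusted p under 0.05 against NA. Without scaling beyond library totals 14 lower genes were set apart, and 13 without PFC replicate 2. Over the 20 alternatives that refit the data, Adgra1, Dkk3, Etv1, Map1a and Ntm were set apart in 19 each, Cpne6 in 18 and Syn2 in 6. For the genes below, this count is given where a gene was set apart in fewer than 10.

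**Figure D1:**
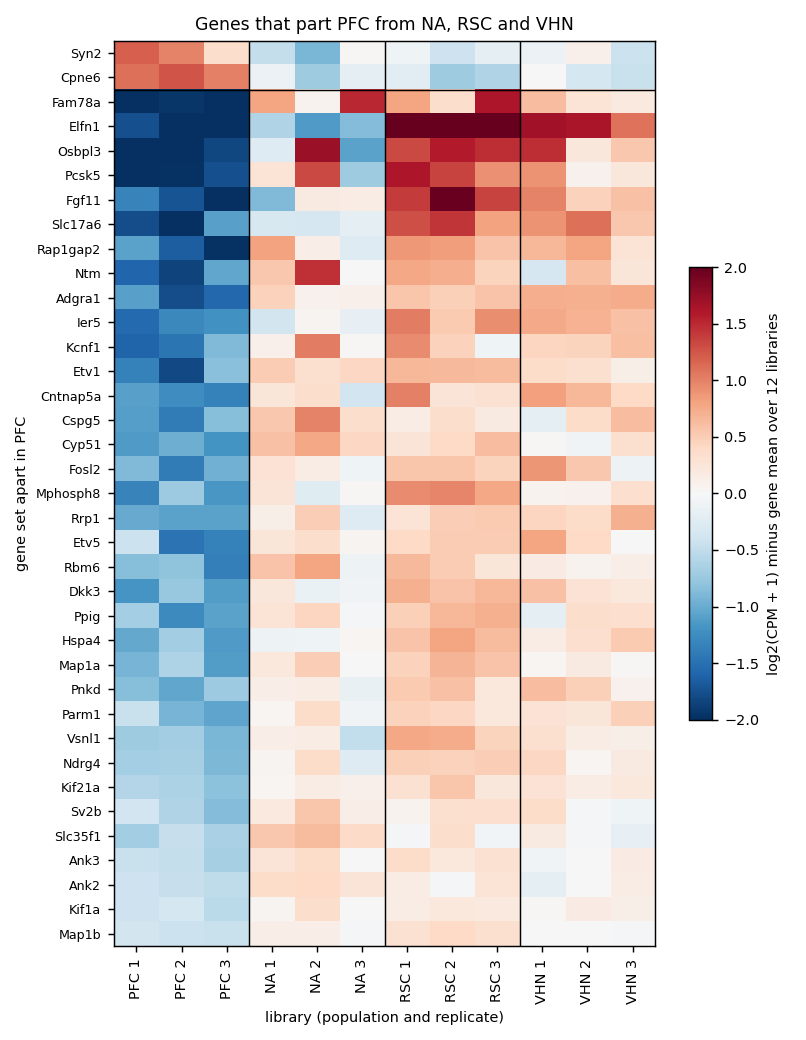
Level of 37 of the 38 genes set apart in PFC (rows) in each of the 12 bulk libraries (columns, PFC at the left), as log2(CPM + 1) minus the gene's mean over the 12 libraries; red is above and blue below that mean, and colours stop at 2 on either side. The 3 PFC columns are red for Syn2 and Cpne6 and blue for the 35 genes beneath them.

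Etv1 and Etv5 encode related ETS-family transcription factors of the PEA3 group, which are known targets of fibroblast growth factor and ERK signalling, and Etv1 marks layer 5 projection neurons in neocortex. Etv1 (ENSMUSG00000004151) was at 772, 562 and 1101 CPM in PFC, against 2797, 2459 and 2618 CPM in NA, 3118, 3072 and 3052 CPM in RSC and 2550.2, 2466 and 2124 CPM in VHN. Every PFC library was below every other library, and the 9 others lay close together. The mean was 812 ± 271 CPM in the PFC libraries (n = 3), against 2695 ± 339 CPM over the 9 others (SD), 3.32-fold lower in PFC (log2 fold change −1.72, SE 0.160, adjusted p = 2.44e-05). Against NA alone the log2 fold change was −1.69, adjusted p = 0.000632. Etv5 (ENSMUSG00000013089) was at 258, 125 and 135 CPM in PFC, against 411, 446 and 363 CPM in NA, 458, 496 and 498 CPM in RSC and 602, 458 and 349 CPM in VHN. PFC replicate 1 was higher than the other 2 PFC libraries but still below all 9 others, and the mean was 2.62-fold lower (log2 fold change −1.39, SE 0.224, adjusted p = 0.00112). Etv5 was set apart in 8 of 20 alternatives.

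The list of ERK feedback genes did not move as a whole. Of its 17 tested members, Etv1 and Etv5 were lower, Mapk3 was higher and the rest did not pass, with a median log2 fold change of 0.22. For this and every later list, the share over all genes tested was 4.38% higher and 3.53% lower. Mapk3, the kinase ERK1, averaged 61.9 ± 15.8 CPM in PFC, against 21.3 ± 1.19 CPM in NA, 12.01 ± 7.44 CPM in RSC and 16.2 ± 3.42 CPM in VHN (mean ± SD of 3 libraries each; log2 fold change 1.95, SE 0.369, adjusted p = 0.00359), and its difference from NA did not pass (1.54, adjusted p = 0.203). Among 26 immediate early genes, 3 were lower and 3 higher, with a list median of 0.82, and at unadjusted p under 0.05 there were 4 lower and 9 higher. The lower ones were Fosl2, an AP-1 subunit, Ier5 and the nuclear receptor Nr4a2 (−0.99, adjusted p = 0.00429). Fosl2 was at 118, 82.04 and 112 CPM in PFC, against 269, 244 and 206 CPM in NA, 319.9, 323 and 298 CPM in RSC and 403, 319.6 and 204 CPM in VHN (log2 fold change −1.46, SE 0.210, adjusted p = 0.000515). Ier5 was at 37.1, 44.5 and 46.98 CPM in PFC, against 85.8, 114 and 98.8 CPM in NA, 226, 158 and 211 CPM in RSC and 188, 179 and 167 CPM in VHN (log2 fold change −1.83, SE 0.212, adjusted p = 0.000118). For both, the highest PFC library was below the lowest of the others, and they were set apart in 7 and 6 of 20 alternatives. Nr4a3 and Bdnf, which activity also induces, were higher (log2 fold changes 2.44, adjusted p = 0.00521, and 2.77, adjusted p = 0.0147), but neither passed against NA.

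Dkk3, a secreted protein of the dickkopf family, was among the genes set apart in 19 of 20 alternatives. It was at 538, 722 and 564 CPM in PFC, against 1439, 1117 and 1162 CPM in NA, 2002, 1824 and 1939.9 CPM in RSC and 1832, 1488 and 1424 CPM in VHN, without overlap. The PFC mean was 2.60-fold lower (log2 fold change −1.36, SE 0.135, adjusted p = 3.97e-05), and the difference from NA was −1.03, adjusted p = 0.00697.

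Because Etv1 and Etv5 bind DNA at sites with the core GGAA, the 250 bases before the first listed start of 4 of the genes are shown, with GGAA on either strand (GGAA or TTCC) in capitals. They are Etv1 and Etv5 themselves, Adgra1, a lower gene with an adjusted p as small as that of Etv1, and Syn2, one of the 2 higher genes. Sequences are from RefSeq on GRCm38.p6, matched by symbol, which found 32 of the 38 genes; the expression values were made on mm9, per the submitters' processing notes. The windows lie at chr12:38779832-38780081 on the plus strand, chr16:22439571-22439820 on the minus strand, chr7:139833924-139834173 on the plus strand and chr6:115134652-115134901 on the plus strand.
Etv1: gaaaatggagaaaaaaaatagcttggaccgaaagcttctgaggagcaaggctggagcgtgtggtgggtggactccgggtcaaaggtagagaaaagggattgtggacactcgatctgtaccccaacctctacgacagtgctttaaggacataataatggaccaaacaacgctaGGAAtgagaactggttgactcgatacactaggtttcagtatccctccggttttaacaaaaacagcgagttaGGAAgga
Etv5: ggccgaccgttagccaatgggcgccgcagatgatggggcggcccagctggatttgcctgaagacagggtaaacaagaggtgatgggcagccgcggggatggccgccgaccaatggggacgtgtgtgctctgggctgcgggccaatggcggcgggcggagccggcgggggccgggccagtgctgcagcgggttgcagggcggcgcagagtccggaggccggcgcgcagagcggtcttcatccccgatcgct
Adgra1: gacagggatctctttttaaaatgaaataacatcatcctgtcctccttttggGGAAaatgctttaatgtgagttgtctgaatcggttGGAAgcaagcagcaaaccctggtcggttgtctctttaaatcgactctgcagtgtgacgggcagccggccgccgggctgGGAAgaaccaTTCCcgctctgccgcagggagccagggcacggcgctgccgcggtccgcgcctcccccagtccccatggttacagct
Syn2: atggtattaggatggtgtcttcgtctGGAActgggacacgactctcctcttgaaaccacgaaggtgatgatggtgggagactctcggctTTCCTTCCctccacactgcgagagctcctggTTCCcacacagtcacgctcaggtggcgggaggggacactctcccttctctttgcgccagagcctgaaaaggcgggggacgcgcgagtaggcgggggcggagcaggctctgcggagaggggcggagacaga
The core was found 2 times before Etv1, 0 times before Etv5, 4 times before Adgra1 and 4 times before Syn2, where 2 copies adjoin. These counts hold for the start shown: before a second start that RefSeq lists, the core was found 1 time for Etv1, 4 times for Etv5 and 7 times for Syn2. Over the 52 such windows of 31 lower genes, some with several starts, the median was 2 and 80.8% held at least 1, against a median of 3 and 93.4% over all 32851 windows. Longer motifs were searched on both strands in windows that also hold the 50 bases after the start. None of the 52 windows held the ETS sequence CCGGAAGT, the AP-1 sequence TGANTCA or the cyclic AMP response element TGACGTCA, which 3.89%, 7.81% and 1.79% of all windows hold. The sequence TCACNCCAC, a sterol response element, was in 1 of them, that of Kcnf1 (1.92%, against 1.24% of all windows). These matches describe the windows only.

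Surface and adhesion molecules formed the next group. Of 60 synaptic adhesion genes tested, 13 were lower and 9 higher in PFC, and the lower Elfn1, Ntm and Cntnap5a were set apart. The median of the list was 0.14, and 10 of the 60 lay below all 9 other libraries in every PFC library, beside 2.79% of all genes tested. Adgra1 (ENSMUSG00000025475), an adhesion G protein-coupled receptor outside that list, was at 170.0, 105 and 121 CPM in PFC, against 495, 383 and 388 CPM in NA, 529, 503 and 538 CPM in RSC and 596, 593 and 604 CPM in VHN. Its PFC libraries stood far below the rest, 3.89-fold on average (log2 fold change −1.95, SE 0.171, adjusted p = 2.44e-05), and the difference from NA was −1.67, adjusted p = 0.000768. Ntm, the cell-surface IgLON protein neurotrimin, was at 103, 86.2 and 151 CPM in PFC, against 456, 861 and 313 CPM in NA, 532, 519 and 427 CPM in RSC and 248, 476 and 369 CPM in VHN (log2 fold change −2.02, SE 0.294, adjusted p = 0.000533). The spread was wide in NA, with replicate 2 highest, yet no library overlapped PFC. Cntnap5a, of the contactin-associated protein family, was at 72.4, 64.7 and 60.3 CPM in PFC, against 185, 198 and 119 CPM in NA, 313, 186 and 191 CPM in RSC and 276, 248 and 206 CPM in VHN (log2 fold change −1.68, SE 0.232, adjusted p = 0.000370).

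Elfn1 showed a graded pattern. It encodes a postsynaptic leucine-rich repeat protein that recruits metabotropic glutamate receptors to the facing terminal. Elfn1 (ENSMUSG00000048988) was at 24.8, 5.82 and 7.31 CPM in PFC, against 56.3, 38.9 and 47.04 CPM in NA, 513, 408 and 407 CPM in RSC and 279, 269 and 184 CPM in VHN. PFC was lowest, NA was next and low in all 3 libraries, and RSC was highest. The mean of the others was 19.4 times that of PFC (log2 fold change −3.77, SE 0.407, adjusted p = 8.64e-05), but the difference from NA lay just inside the threshold (−1.91, adjusted p = 0.0495), and Elfn1 was set apart in 4 of 20 alternatives. Cspg5, a transmembrane chondroitin sulfate proteoglycan of neurons, was at 37.8, 30.4 and 44.8 CPM in PFC, against 120.0, 163 and 104 CPM in NA, 91.4, 105 and 92.96 CPM in RSC and 71.9, 106 and 126 CPM in VHN (log2 fold change −1.52, SE 0.260, adjusted p = 0.00174).

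**Figure D2:**
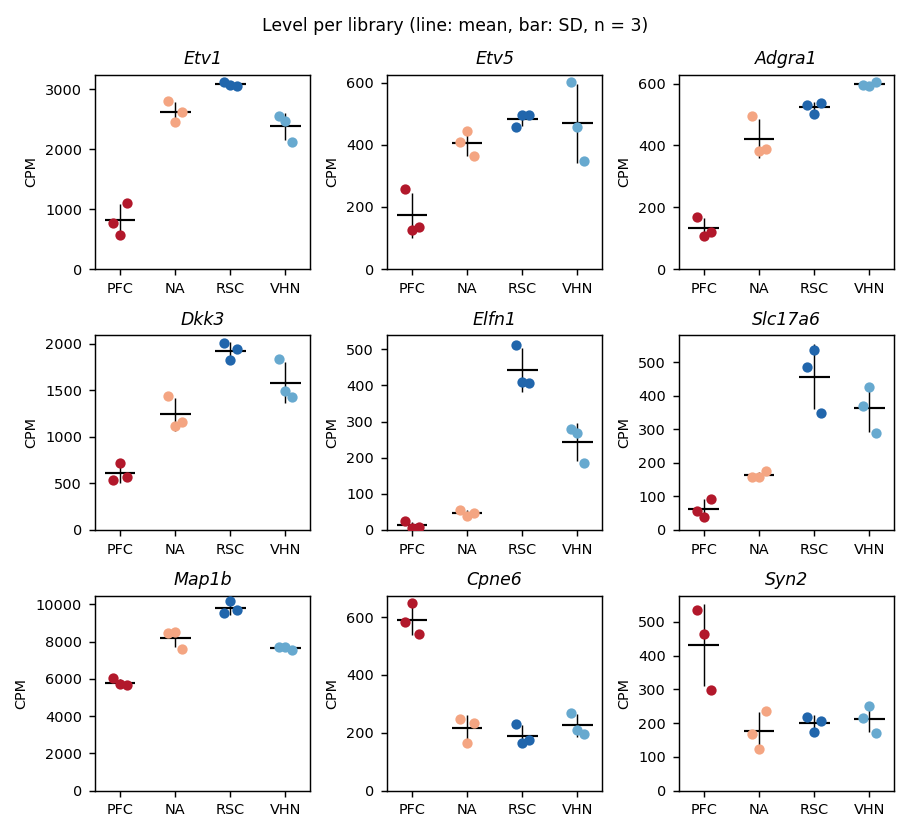
CPM per library (points) with the mean (horizontal line) and SD (vertical bar, n = 3) of each population for 9 of the genes set apart, PFC at the left of each panel. PFC lies below the other populations in the first 7 panels and above them for Cpne6 and Syn2. The NA mean lies between PFC and the other populations for Etv5, Adgra1, Dkk3, Elfn1 and Slc17a6.

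Ion channel genes were divided. Of 18 sodium and HCN channel genes with their partners, 4 were lower and 2 higher (median −0.25), and Fgf11 was set apart. Fgf11, a fibroblast growth factor homologous factor of the family that binds sodium channels, was at 63.9, 48.3 and 17.6 CPM in PFC, against 87.7, 185 and 179.6 CPM in NA, 430.3, 643 and 414 CPM in RSC and 324, 225 and 245 CPM in VHN (log2 fold change −2.64, SE 0.357, adjusted p = 0.000299). NA replicate 1 came closest to PFC, and Fgf11 was set apart in 4 of 20 alternatives. The sodium channel genes Scn4b (−2.43, adjusted p = 0.00459) and Scn1a (−0.86, adjusted p = 0.0321) were lower against the mean only.

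Of 49 voltage-gated potassium channel genes, 10 were higher and 7 lower (median 0.04), and Kcnf1 alone was set apart. Kcnf1, a modifier subunit that forms no channel by itself, was at 43.2, 47.8 and 71.5 CPM in PFC, against 143, 272 and 136 CPM in NA, 256, 183 and 126 CPM in RSC and 180.4, 183 and 203 CPM in VHN (log2 fold change −1.79, SE 0.285, adjusted p = 0.00103). All PFC libraries were below all others, and RSC replicate 3 was the nearest. Kcnab1, an auxiliary Kv1 subunit, went the other way, at 64.4, 78.1 and 147 CPM in PFC, against 13.9, 1.93 and 7.04 CPM in NA, 37.3, 21.9 and 32.1 CPM in RSC and 23.9, 27.7 and 17.3 CPM in VHN (log2 fold change 2.46, SE 0.410, adjusted p = 0.00144). It also passed against NA (3.65, adjusted p = 0.0129) but missed the test against RSC (adjusted p = 0.0760). Kcnip2, a Kv4 partner, was higher against the mean (2.23, adjusted p = 0.00543) and Kcnab3 lower (−3.07, adjusted p = 0.00154). The calcium channel list had 4 higher and 1 lower among 20 members (median 0.34). Cacna2d1 averaged 643 ± 133 CPM in PFC, against 472 ± 80.02 CPM in NA, 88.4 ± 22.8 CPM in RSC and 125 ± 28.4 CPM in VHN (mean ± SD of 3 libraries each; log2 fold change 1.89, SE 0.176, adjusted p = 2.44e-05), and its difference from NA did not pass (0.45, adjusted p = 0.420).

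Genes of the synaptic vesicle were set apart in both directions. Of 43 genes of the presynaptic release machinery, 10 were lower and 7 higher (median 0.13). Slc17a6 (ENSMUSG00000030500), the vesicular glutamate transporter VGLUT2, was at 57.3, 37.9 and 93.5 CPM in PFC, against 159, 157 and 174 CPM in NA, 486, 537 and 349 CPM in RSC and 369.9, 427 and 290.1 CPM in VHN. PFC was lowest, NA was intermediate and uniform, and RSC and VHN were highest. The PFC mean was 5.21-fold below that of the others (log2 fold change −2.26, SE 0.258, adjusted p = 0.000118; against NA −1.38, adjusted p = 0.0383), and Slc17a6 was set apart in 7 of 20 alternatives. Slc17a7, the partner transporter VGLUT1, averaged 997 ± 29.6 CPM in PFC, against 830.3 ± 106 CPM in NA, 596 ± 21.98 CPM in RSC and 598 ± 73.5 CPM in VHN (mean ± SD of 3 libraries each; log2 fold change 0.58, SE 0.115, adjusted p = 0.00488), and did not pass against NA (0.26, adjusted p = 0.443).

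Syn2 (ENSMUSG00000009394), the vesicle-associated phosphoprotein synapsin II, was higher, at 534, 464 and 297 CPM in PFC, against 167, 124 and 236 CPM in NA, 219, 175 and 206 CPM in RSC and 215, 249 and 172 CPM in VHN. PFC replicate 3 was the lowest of its group, and it still exceeded every other library (log2 fold change 1.14, SE 0.198, adjusted p = 0.00189; against NA 1.29, adjusted p = 0.0383). Sv2b, a synaptic vesicle glycoprotein, was lower, at 1662, 1432 and 1196 CPM in PFC, against 2492, 3184 and 2383 CPM in NA, 2283, 2719.5 and 2738 CPM in RSC and 2811, 2124 and 2056 CPM in VHN (log2 fold change −0.82, SE 0.136, adjusted p = 0.00139). Syt4 (−1.19, adjusted p = 0.000335) and the complexin Cplx1 (−1.28, adjusted p = 0.000769) were lower against the mean without passing against NA. Pnkd, a protein that binds the active-zone protein RIM, was at 269, 237 and 294 CPM in PFC, against 533, 539 and 441 CPM in NA, 698, 736 and 567 CPM in RSC and 746, 675 and 518 CPM in VHN (log2 fold change −1.17, SE 0.155, adjusted p = 0.000270), and was set apart in 9 of 20 alternatives. Vsnl1, the neuronal calcium sensor visinin-like 1, was at 2141, 2159.8 and 1862 CPM in PFC, against 3859.9, 3878 and 2488 CPM in NA, 5993, 5868 and 4804 CPM in RSC and 4388, 3878 and 3807 CPM in VHN (log2 fold change −1.05, SE 0.131, adjusted p = 0.000175). NA replicate 3 was the lowest of the 9 other libraries and lay nearest to PFC, and Vsnl1 was set apart in 5 of 20 alternatives.

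Cpne6 (ENSMUSG00000022212) was the higher gene with the firmer values. It encodes copine 6, a neuronal protein that binds membranes when calcium rises. It was at 583, 647 and 541 CPM in PFC, against 249, 165 and 235 CPM in NA, 230.4, 165 and 177 CPM in RSC and 269.5, 211 and 197 CPM in VHN. No PFC library came below 541 CPM and no other library exceeded 269.5 CPM. The PFC mean was 2.80-fold that of the others (log2 fold change 1.49, SE 0.158, adjusted p = 8.57e-05), and the difference from NA was 1.45, adjusted p = 0.00684. Shroom2, an actin-binding protein, fell just outside the rule with an adjusted p of 0.0526 against NA. It was at 44.2, 83.01 and 47.4 CPM in PFC, against 8.08, 4.72 and 11.4 CPM in NA, 5.54, 3.14 and 3.38 CPM in RSC and 3.15, 7.50 and 4.32 CPM in VHN, also without overlap (log2 fold change 3.41, SE 0.425, adjusted p = 0.000173).

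Several of the lower genes set apart encode proteins of the cytoskeleton and axonal transport, grouped so after their values were seen. Map1b, a microtubule-associated protein of growing and adult axons, was at 6022, 5707 and 5683 CPM in PFC, against 8459.9, 8506 and 7619.9 CPM in NA, 9527, 10200 and 9679.8 CPM in RSC and 7707, 7719.7 and 7558 CPM in VHN. The PFC libraries lay within a narrow range below all others, 1.47-fold on average (log2 fold change −0.55, SE 0.0699, adjusted p = 0.000185). Its relative Map1a was at 1022, 1269 and 899 CPM in PFC, against 2252, 2745 and 1964 CPM in NA, 2682, 3104 and 2888 CPM in RSC and 1991, 2216 and 1989 CPM in VHN (log2 fold change −1.18, SE 0.129, adjusted p = 8.64e-05; against NA −1.13, adjusted p = 0.00389). Both were lower against each population, and RSC was the highest. The scaffold genes Ank2 and Ank3, encoding ankyrin-B and the axon initial segment protein ankyrin-G, had log2 fold changes of −0.62, adjusted p = 0.00149, and −0.71, adjusted p = 0.00194. The kinesin genes Kif1a (−0.58, adjusted p = 0.00199) and Kif21a (−0.90, adjusted p = 0.000533) and Ndrg4 (−1.005, adjusted p = 0.000162) were also lower. Ank3, Kif1a and Kif21a were set apart in 4, 4 and 5 of 20 alternatives.

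The remaining lower genes belong to several classes. Osbpl3, of the oxysterol-binding protein family, was at 10.1, 6.03 and 14.3 CPM in PFC, against 44.05, 176 and 24.7 CPM in NA, 133, 159.8 and 149 CPM in RSC and 149, 62.2 and 77.4 CPM in VHN (log2 fold change −3.38, SE 0.561, adjusted p = 0.00141). Pcsk5, a proprotein convertase, was at 4.77, 5.96 and 7.03 CPM in PFC, against 32.1, 66.9 and 15.7 CPM in NA, 82.2, 68.8 and 50.4 CPM in RSC and 49.6, 27.9 and 30.8 CPM in VHN (log2 fold change −2.93, SE 0.491, adjusted p = 0.00146). NA replicate 3 was the lowest of the other libraries for both, and they were set apart in 8 and 6 of 20 alternatives. Rap1gap2, which switches off the small GTPase Rap1, was at 37.2, 24.6 and 19.5 CPM in PFC, against 140.0, 86.7 and 66.3 CPM in NA, 146, 142 and 118 CPM in RSC and 126, 138 and 96.4 CPM in VHN (log2 fold change −2.11, SE 0.300, adjusted p = 0.000489). Cyp51, an enzyme of cholesterol synthesis, was at 32.9, 36.9 and 31.7 CPM in PFC, against 110.3, 126 and 98.4 CPM in NA, 87.7, 97.6 and 113 CPM in RSC and 74.5, 70.02 and 92.2 CPM in VHN (log2 fold change −1.499, SE 0.238, adjusted p = 0.00101). The 2 genes had no overlap and were set apart in 13 and 17 of 20 alternatives.

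Genes of RNA and protein handling were among them too. Rrp1, which acts in ribosomal RNA processing, was at 144, 138 and 137 CPM in PFC, against 316, 411 and 244 CPM in NA, 351, 407 and 419 CPM in RSC and 389.8, 375 and 476 CPM in VHN (log2 fold change −1.42, SE 0.176, adjusted p = 0.000173). Hspa4, a chaperone of the Hsp70 superfamily, was at 279, 351 and 260.1 CPM in PFC, against 533, 536 and 586 CPM in NA, 841, 984 and 879 CPM in RSC and 633, 716 and 817 CPM in VHN (log2 fold change −1.26, SE 0.140, adjusted p = 9.29e-05). Both were clear of the other libraries. The cyclophilin gene Ppig (−1.35, adjusted p = 0.000497), the RNA-binding protein gene Rbm6 (−1.36, adjusted p = 0.00528) and Mphosph8, of the HUSH silencing complex (−1.43, adjusted p = 0.000489), were lower as well, and Rbm6 and Mphosph8 were set apart in 3 of 20 alternatives each. Parm1 (−1.06, adjusted p = 0.000764) and the solute carrier family member Slc35f1 (−0.81, adjusted p = 0.00236) were set apart in 4 and 5 of 20. The heat shock and stress list had 3 lower genes and 1 higher among 19 (median −0.42). In each PFC library, 4 of the 19 lay below all 9 other libraries, beside 2.79% of all genes tested. Dnaja1, Hsp90ab1 and Hsph1 were among these 4 and did not pass against NA.

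Fam78a had 2 fragments over the 3 PFC libraries and 1072 over the 9 others. It was at 0, 0.139 and 0 CPM in PFC, against 6.65, 3.64 and 11.5 CPM in NA, 6.63, 4.63 and 12.6 CPM in RSC and 5.73, 4.35 and 4.03 CPM in VHN. Per fragment counted, the others exceeded PFC 128-fold, with a counting interval of 35.3 to 1057 that covers counting error only. It was set apart in 5 of 20 alternatives and is named here outside the naming rule, since its mean in the others is under 10 CPM.

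**Figure D3:**
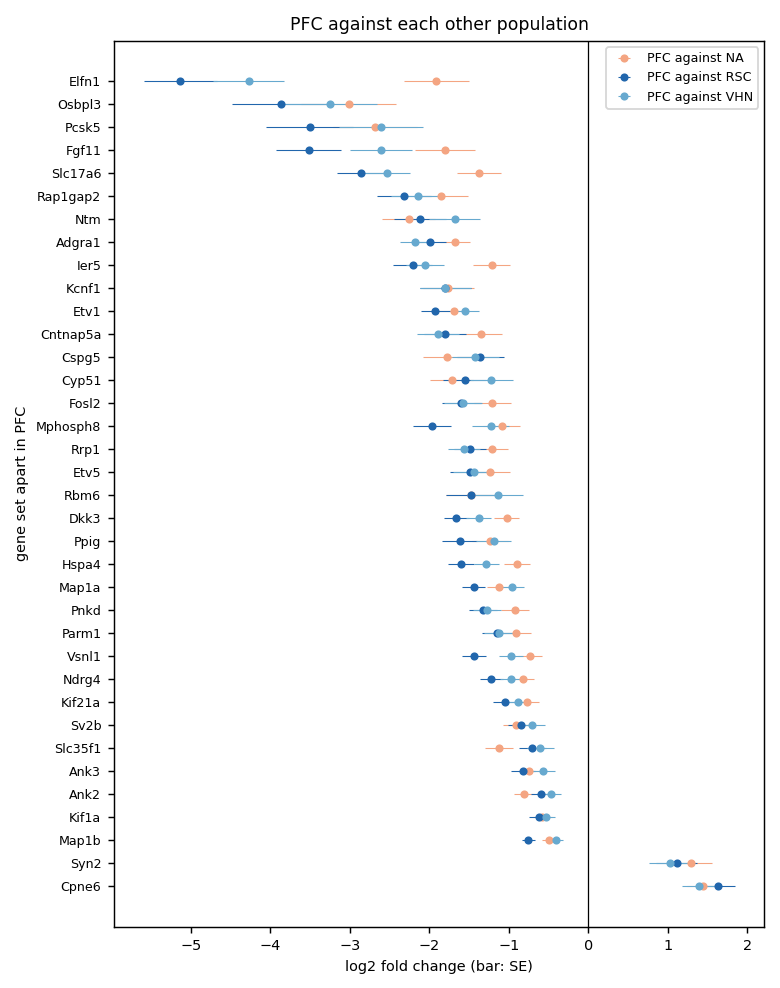
Log2 fold change of PFC against NA, RSC and VHN (points, bars: SE) for 36 of the 38 genes set apart; Fam78a, with 2 fragments in PFC, is among those left out. All points of a gene lie on the same side of 0 by the rule, and for Elfn1, Fgf11 and Slc17a6, among others, the point against NA is the nearest to 0.

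The threshold cut through a run of like values. Just inside it, the largest of the 3 adjusted p-values was 0.0495 for Elfn1, Mphosph8 and Rbm6. Just outside it were the matrix protein fibronectin, Fn1 (0.0515), Brinp3 (0.0525) and Shroom2 (0.0526). Fn1 was at 0.0867, 0 and 0 CPM in PFC, against 0.0621, 1.82 and 14.4 CPM in NA, 567, 572 and 381 CPM in RSC and 615, 575 and 285 CPM in VHN, so that NA replicate 1 was as low as PFC. A further 23 genes passed against NA without being set apart, 3 higher and 20 lower. The 3 higher ones were Kcnab1 and, named here after their values were seen, Rps15 and Trib2, both of which averaged lower in PFC than in RSC and VHN.

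A second question was how the other populations were ordered where PFC was lowest. NA had the lowest mean of the other 3 in 21 of the 36 lower genes. The same share was not counted over all genes tested, so this count is not shown to be particular to these genes. In a contrast of NA with the mean of RSC and VHN, added after the values were seen, 7 of the 36 were lower in NA, 29 did not pass and none was higher, beside 2.87% of all genes lower and 5.79% higher (8.67% together). The median of the mean level in the other libraries was 460 CPM for the 36 and 18.6 CPM for all genes tested. The shares are therefore not matched by level. The 7 genes were Elfn1, Fgf11, Slc17a6, Ier5, Dkk3, Hspa4 and Vsnl1, which thus had PFC lowest and NA between it and the others. For Etv1 (−0.04, adjusted p = 0.898), Kcnf1 (−0.04, adjusted p = 0.953), Map1a (−0.07, adjusted p = 0.776) and Map1b (−0.08, adjusted p = 0.546) that contrast was near 0. The 6 genes Ank2, Cspg5, Cyp51, Ntm, Slc35f1 and Sv2b had their highest mean in NA.

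Most genes that differed between PFC and the mean of the others did not part it from NA. Of the 609 higher genes, 467 passed against RSC, 295 against VHN and 3 against NA. Of the 491 lower genes, 449 passed against RSC, 318 against VHN and 51 against NA. All 3 PFC libraries were above all 9 others for 209 of the 609, and below them for 271 of the 491. Over all genes tested these shares were 2.54% and 2.79%. The 609 and 491 were picked by a test on these same libraries, so their separation is no independent evidence. A p above the threshold does not show that PFC and NA are alike.

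Among transmitter receptors the genes called against the mean of the others were mostly higher in PFC. Of 25 glutamate receptor genes, 6 were higher and none was lower with edgeR (median 0.22), beside 4.38% and 3.53% of all genes tested. At unadjusted p under 0.05 they were 8 and 1, and DESeq2 called 7 and 0. The kainate receptor gene Grik4 (6.06, adjusted p = 0.000284) and the NMDA receptor gene Grin2b (0.60, adjusted p = 0.00730) were higher against the mean. Of 32 receptors for monoamines, acetylcholine, adenosine and cannabinoids, 9 were higher and 2 lower (median 0.18). No member of this list or of the glutamate receptor list passed against NA. The serotonin receptor gene Htr2c was at 142, 177 and 216 CPM in PFC, against 119.9, 35.9 and 87.6 CPM in NA, 2.37, 1.71 and 2.37 CPM in RSC and 5.36, 29.2 and 27.7 CPM in VHN (log2 fold change 3.53, SE 0.378, adjusted p = 8.57e-05), without overlap. The dopamine receptor gene Drd1, at 27.8, 7.83 and 23.5 CPM in PFC, against 0.249, 23.5 and 0 CPM in NA, 0.404, 0 and 0.387 CPM in RSC and 0.0525, 0 and 0 CPM in VHN, overlapped NA replicate 2. Of 17 GABA and glycine receptor genes, 1 was higher and 2 were lower, with a list median of 0.31, and Gabrd was among the lower ones (−4.09, adjusted p = 0.0148).

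Peptide and calcium-binding genes moved in both directions. Of 12 neuropeptide precursor genes, 2 were higher and 2 lower (median −0.66). The neuromodulator precursor Scg2, secretogranin II, was at 169.8, 205 and 249 CPM in PFC, against 386, 982 and 355 CPM in NA, 421, 615 and 458 CPM in RSC and 216, 335 and 361 CPM in VHN (log2 fold change −1.09, SE 0.280, adjusted p = 0.0240), and Nts, neurotensin, was lower against the mean (−2.76, adjusted p = 0.000162). Of 24 neuropeptide and orphan receptor genes, 2 were higher and 3 lower (median 0.49). The relaxin receptor gene Rxfp1 was at 0.560 ± 0.563 CPM in PFC, against 2.75 ± 3.19 CPM in NA, 169 ± 27.4 CPM in RSC and 145 ± 31.3 CPM in VHN (mean ± SD of 3 libraries each), with PFC and NA both far below RSC and VHN and no test passed between PFC and NA (−2.32, adjusted p = 0.234). The list of calcium-binding and calcium-signalling proteins held 6 higher and 3 lower genes among 34 (median −0.03), and Vsnl1 alone was set apart.

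Guidance, cadherin and matrix genes were called in both directions, and none was set apart. The axon guidance list had 7 higher and 5 lower genes among 59 (median 0.35). Unc5c, a netrin receptor, was at 26.9, 65.8 and 30.8 CPM in PFC, against 87.3, 114 and 84.1 CPM in NA, 407, 385 and 441 CPM in RSC and 419, 219 and 208 CPM in VHN (log2 fold change −2.43, SE 0.307, adjusted p = 0.000185), below all others in PFC. The ligand gene Slit1 was at 103, 114 and 109 CPM in PFC, against 46.7, 96.5 and 36.4 CPM in NA, 8.31, 5.35 and 15.6 CPM in RSC and 5.62, 13.4 and 14.7 CPM in VHN, above all others (log2 fold change 2.54, SE 0.358, adjusted p = 0.000456). The cadherin and protocadherin list had 7 higher and 5 lower genes among 24 (median 0.72), Cdh6 being lower (−2.65, adjusted p = 0.00162). The extracellular matrix list had 10 higher and 4 lower genes among 32 (median 0.76). Spon1, the secreted protein spondin 1, was at 258, 287 and 356 CPM in PFC, against 137, 119 and 158 CPM in NA, 107, 58.8 and 55.1 CPM in RSC and 86.4, 87.3 and 131 CPM in VHN, without overlap (log2 fold change 1.57, SE 0.212, adjusted p = 0.000299; against NA 1.12, adjusted p = 0.0989). Nell2, a secreted ligand of the Robo3 receptor, averaged 629 ± 46.4 CPM in PFC, against 439 ± 90.6 CPM in NA, 154 ± 38.5 CPM in RSC and 189.9 ± 15.05 CPM in VHN (mean ± SD of 3 libraries each; log2 fold change 1.43, SE 0.156, adjusted p = 8.64e-05).

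Of 67 transcription factor genes of cortical and hippocampal neurons, 16 were higher and 6 lower (median 0.18), and only Etv1 and Etv5 were set apart. Lhx2 (4.94, adjusted p = 0.000778) and Zfhx4 (7.18, adjusted p = 0.000118) were higher against the mean, overlapped at least 1 other library and did not pass against NA. Zbtb20 was at 48.97, 551 and 609 CPM in PFC, against 26.7, 33.9 and 65.3 CPM in NA, 5.31, 6.01 and 10.1 CPM in RSC and 0.735, 16.2 and 16.7 CPM in VHN (log2 fold change 4.75, SE 0.593, adjusted p = 0.000174); PFC replicate 1 lay within the NA range, and replicates 2 and 3 far above it. Of 24 receptor tyrosine kinase and neurotrophic genes, 5 were higher and 2 lower (median −0.30), led by Kit (4.53, adjusted p = 0.000175), whose difference from NA did not pass (0.18, adjusted p = 0.949). Of 59 regulators of G proteins, cyclic nucleotides and small GTPases, 10 were higher and 3 lower (median 0.27), with Plcb4, a phospholipase C, at 21.8, 29.2 and 43.04 CPM in PFC, against 56.5, 71.1 and 49.6 CPM in NA, 233, 302 and 384 CPM in RSC and 186, 293 and 205 CPM in VHN (log2 fold change −2.35, SE 0.272, adjusted p = 0.000118). The 19 genes known from reports to differ across the subiculum split into 6 higher and 7 lower genes and a remainder that did not pass (median −0.09), and Slc17a6 and Syn2 were set apart. Such reports may rest on cells of this region, so that list is not independent evidence of a direction.

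**Figure D4:**
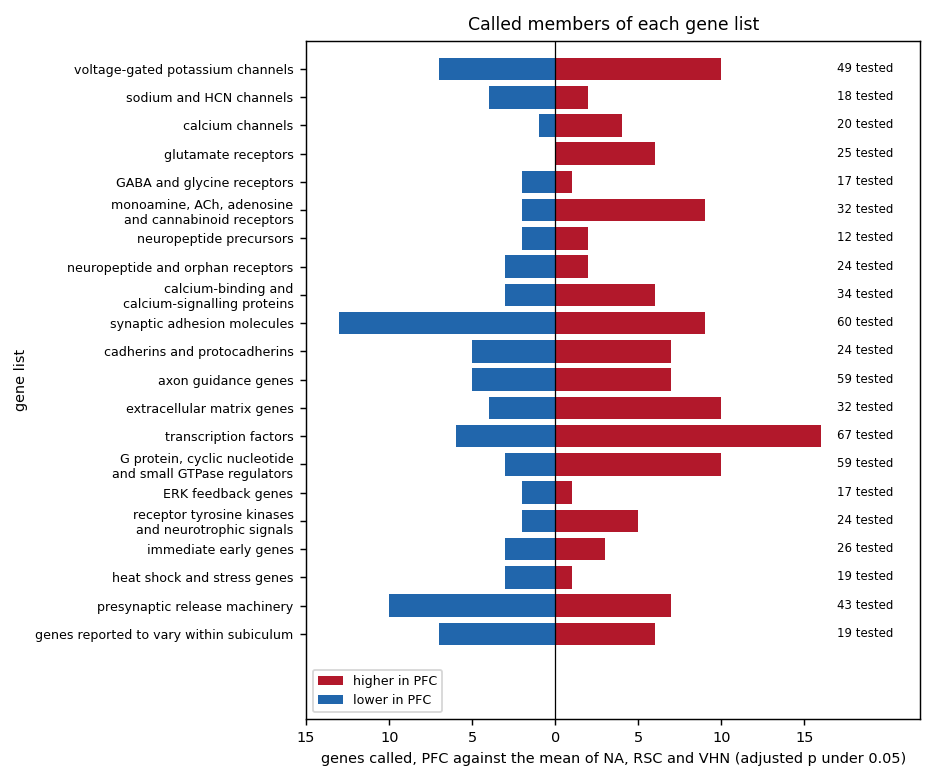
Number of genes of each list called higher (red, right of 0) or lower (blue, left of 0) in PFC against the mean of NA, RSC and VHN, with the number tested at the right. Glutamate receptors were called in the higher direction only, 6 of 25, and synaptic adhesion molecules have the most lower genes, 13 of 60.

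Among the marker lists of neighbouring regions, that of CA1 had the most called members. Of 11 markers of CA1, the adjoining hippocampal field, 7 were higher in PFC and 1 lower (median 1.78), beside 4.38% and 3.53% of all genes tested. None of the 11 passed against NA. The summed level of the CA1 list was 2193 to 3277 CPM in PFC, against 2059 to 2312 CPM in NA, 1048 to 1183 CPM in RSC and 947 to 1286 CPM in VHN. Of its members, Mpped1 was at 107, 146 and 157 CPM in PFC, against 120, 159 and 96.2 CPM in NA. It was at 215, 251 and 217 CPM in RSC and 227, 210 and 149 CPM in VHN. Ccn3 was at 774, 723 and 689 CPM in PFC, against 945, 941 and 945 CPM in NA. It was at 193, 184 and 223 CPM in RSC and 160, 351 and 464 CPM in VHN, so PFC lay between NA and these 2 populations. Wfs1, a marker of CA1 pyramidal cells, was at 135, 359 and 203 CPM in PFC, against 67.3, 109 and 57.8 CPM in NA, 38.3, 74.2 and 27.1 CPM in RSC and 46.4, 52.2 and 42.1 CPM in VHN (log2 fold change 2.07, SE 0.296, adjusted p = 0.000489; against NA 1.58, adjusted p = 0.0996). Of 10 CA3 and CA2 markers 1 was higher and 1 lower (median 1.535), the dentate granule list of 6 held Calb1 as a higher gene (median −0.29), and of 9 presubicular, entorhinal and deep neocortical markers Wfs1 was higher and Nr4a2 lower (median −0.46). The 12 markers of excitatory pyramidal cells held 4 higher genes, with Slc17a6 lower. The part of neighbouring cells in the genes set apart was not tested.

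Markers of other cell types were few. The interneuron list summed to 174 to 244 CPM in PFC, against 208 to 314 CPM in NA, 149 to 511 CPM in RSC and 157 to 410.1 CPM in VHN, and none of its 9 tested members passed with edgeR, while 3 were lower at unadjusted p under 0.05 and by DESeq2. Nearly all of the PFC sum was the cannabinoid receptor gene Cnr1, at 173, 178 and 243 CPM. Astrocyte markers summed to 285 to 393 CPM in PFC, against 325 to 651 CPM in NA, 145 to 393 CPM in RSC and 70.5 to 170.2 CPM in VHN, with 0 of 5 tested members called by edgeR or DESeq2, and 0 at unadjusted p under 0.05. Most of that level was the glutamate transporter Slc1a2, and Gfap was at 0 in PFC. Oligodendrocyte markers summed to 45.7 to 52.3 CPM in PFC, with 0 of 4 called by the same 3 measures. Of the endothelial and mural list, Rgs5 was the 1 tested member and was higher in PFC (2.54, adjusted p = 0.00991), while Cldn5 was at 0 in all 12 libraries. Microglia and oligodendrocyte precursor markers stayed under 5 CPM in every PFC library. Their part in the results was not tested.

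The third question was whether the genes set apart vary together within the subiculum, for which the single cells gave a readout that the rule did not use. Among 384 wells on the plates, 348 reached 1000 detected genes, and the median cell held 112375 counts over 5221 genes. Wells carry no projection label and were treated as 1 pooled sample, no doublet caller was run, and correlations are given as descriptions with no test. Of the 38 genes, 37 were in the table. Etv1 had a count in 314 of 348 cells (90.2%, exact binomial interval 86.6 to 93.1%), and Elfn1 in 99 (28.45%, 23.8 to 33.5%). Shares of the lower genes reached from 6.61% for Fam78a to 97.4% for Rrp1. Each interval covers counting error only.

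Spearman correlations of single-cell CPM were taken within each of the 4 plates and averaged, for 36 of the genes detected in at least 20% of cells. Among the lower genes the 561 pairs had a median rho of 0.16 (−0.20 to 0.61), and 522 pairs (93.05%) were positive. Over all pairs of the 7996 genes detected in at least 20% of cells, the median was 0.03 and 68.1% were positive. The 36 genes had a median share of 86.6% of cells, and the 7996 were not matched to them by share or level. All pairs share their cells, so depth and cell quality enter every pair. Pairs of a higher and a lower gene had a median of −0.0084, with 28 of 68 positive, and the 2 higher genes, Cpne6 and Syn2, had a rho of 0.31.

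Among the genes set apart, Etv1 varied most closely with Adgra1 (rho 0.61), Slc17a6 (0.57), Dkk3 (0.49) and Ntm (0.47). Its rho was at least 0.4, a limit chosen after the values were seen, with 15 of the 33 other lower genes (45.5%), against 93 of 7995 genes (1.16%). The median was 0.36 with the lower genes and 0.06 with all genes, which were not matched to the lower ones by level or share of cells. Map1b (0.47), Etv5 (0.47), Fgf11 (0.41) and Elfn1 (0.41) were among the 15. The lowest values among the lower genes were those of Rbm6 (0.07), Rrp1 (−0.05) and Ank2 (−0.11). Among the 333 cells with at least 3000 genes, rho with Etv1 was 0.57 for Adgra1 and for Slc17a6 and 0.45 for Dkk3.

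**Figure D5:**
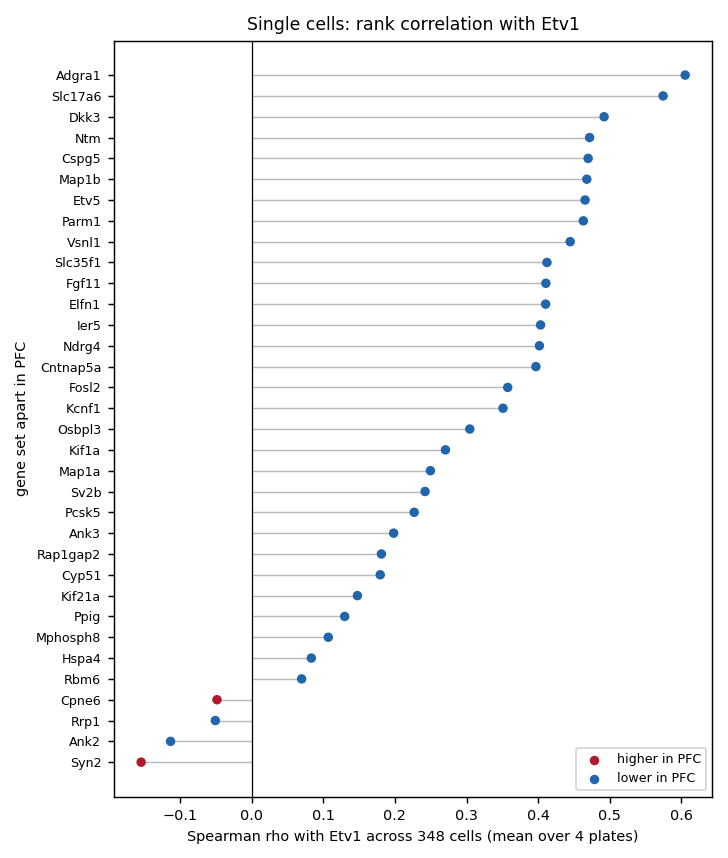
Spearman rho with Etv1 across 348 single cells (mean over 4 plates) for 34 genes set apart in PFC that were detected in at least 20% of cells; blue genes were lower and red genes higher in bulk PFC libraries. Adgra1 and Slc17a6 lie farthest right at 0.61 and 0.57. Cpne6 and Syn2 lie left of 0, as do the lower genes Rrp1 and Ank2.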

How the data were processed

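Gene expression was measured by bulk RNA-seq in 12 libraries of subiculum pyramidal cells, 3 per projection target, and by single-cell RNA-seq. Reads were placed on mm9 per the submitters' processing notes; the aligner and whether counting used strand are not given in the sources used here, so overlapping antisense genes cannot be told apart. The deposited bulk table holds estimated counts (raw fragments) and FPKM per gene as the authors made them, per the file headers; the deposited single-cell table holds counts. Of the values above 0, 8.51% were not whole and were rounded. The 37607 genes were filtered with filterByExpr (minimum count 10), which left 13916, and fitted with edgeR 4.0.16 (quasi-likelihood, trimmed-mean scaling, R 4.3.3) over all 12 libraries with 8 residual degrees of freedom. Contrasts were PFC against the equally weighted mean of the log2 levels of NA, RSC and VHN and against each of them. P-values were adjusted by the Benjamini-Hochberg method over all genes tested, at 0.05, and an SE is the absolute log2 fold change over the square root of F. DESeq2 1.42.0, other scalings, filters and left-out libraries were alternatives.

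The populations, gene lists and rules were chosen with earlier results of these data known. Genes named from lists are up to 4 members with the lowest adjusted p among those called; from the genes set apart, the rule takes the 12 with the largest absolute change and the 8 with the lowest adjusted p at a mean of at least 10 CPM, and the others are named as well. A few genes are counted in totals and lists but not reported here. Promoter windows came from RefSeq. Single cells with at least 1000 genes were kept, and intervals are exact binomial at 95%. Libraries held 10777274 to 20904127 fragments, and 3 libraries a population limit the precision. The series' design text calls the replicates biological and the labels name no animals, so p-values measure the spread between these libraries.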

Additional observations from a re-analysis of the deposited data

How the results depend on the processing

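The counts of genes depended on the fit. None of the 97 named genes changed direction against the mean of the others under 19 alternatives, of which DESeq2 gave a value for 96. The fit of each pair on its own libraries has no such contrast. The named genes were picked with this same contrast, and the alternatives refit the same libraries or some of them. Their unchanged direction is therefore no independent evidence. With DESeq2, 985 genes were higher and 991 lower in PFC against the mean of the others, 227 and 364 against NA, 1334 and 1158 against RSC, 809 and 789 against VHN, and 63 and 170 were set apart. Without a filter on low counts, 1200 genes were higher against the mean, 120 were higher and 394 lower against NA, 537 and 588 against VHN, and 47 and 148 were set apart. Without scaling beyond library totals, 3 were higher and 20 lower against NA, and 14 lower genes were set apart. With each pair fitted on its own 6 libraries, 0 were higher and 0 lower against NA, so 0 and 0 were set apart. Without RSC replicates 2 and 3 and VHN replicate 3, there were 299 higher and 185 lower against the mean, 2 and 12 against NA, 96 and 123 against RSC, 167 and 132 against VHN, and 0 and 5 set apart. Without NA replicate 2 and PFC replicate 3, there were 8 higher and 33 lower against NA and 566 lower against VHN. With a change of at least 1 on the log2 scale also required, 302 were lower against the mean and 23 lower genes were set apart. The cause was not tested, save that the last setting and those that leave out libraries use a stricter rule or fewer samples.

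Leaving out each library in turn gave 335 to 798 higher and 258 to 644 lower against the mean, 2 to 27 and 20 to 125 against NA, 359 to 885 and 385 to 948 against RSC, 137 to 523 and 193 to 581 against VHN, and 1 to 6 and 13 to 49 set apart. The lowest count of lower genes set apart came without PFC replicate 2 and the highest without NA replicate 3, and 8 of the 13 and 31 of the 49 were among the 36. Without PFC replicate 2, 12 of the 97 named genes no longer passed against the mean. Over all genes tested, libraries with the same replicate number deviated from their population means with correlations of −0.0593 to 0.0274. These values cannot show whether the numbers pair samples, since a pairing that moves only some genes could go unseen. With the replicate number as a block, 2 higher and 29 lower genes were set apart, 25 of the lower ones among the 36, and 1 named gene no longer passed. DESeq2 size factors in edgeR gave 2 and 28. The common biological coefficient of variation was 0.736, with 3 libraries a population.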
